A study of Mus musculus with 18 samples.

Results

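Inguinal white fat (iWAT) was compared with epididymal white fat (eWAT) in mice labelled KO, with 3 libraries per depot, across all genes. These 6 libraries were chosen by their labels from the 18 of the series, which also holds both depots from mice labelled WT and liver from both genotypes. KO stands for Bckdhaf/f;RIP-Cre, a floxed Bckdha gene together with Cre recombinase under the rat insulin promoter. WT stands for Bckdhaf/f, the same floxed gene without Cre, so all animals carried the floxed gene. All mice were C57BL/6 and 12 weeks old, and no source used here states their sex. That promoter drives expression in the beta cells of the pancreas and in certain neurons, and no group carried RIP-Cre alone. The labels do not state whether each library is a different animal, or whether iWAT and eWAT libraries of the same number share an animal. The main test treats the 6 libraries as unpaired. Its p-values rest on the scatter among libraries, which could be technical.

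Inguinal fat is a subcutaneous pad at the hind limb, and epididymal fat is an intra-abdominal pad attached to the epididymis in the male. The pads arise from different mesoderm and keep developmental transcription factors in their adult cells, and the intra-abdominal pad is covered by mesothelium, an epithelium-like layer that expresses Wt1. Mouse inguinal fat holds more cells able to become beige adipocytes, which burn fuel for heat through the mitochondrial carrier Ucp1. The inguinal pad encloses a lymph node, and the epididymal pad is cut from the epididymis and its vessels, so either dissection can carry tissue other than fat. Bckdha encodes a subunit of the enzyme that commits branched-chain amino acids to breakdown.

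Total expected counts were 17142650 to 24357859 in the 3 eWAT KO libraries and 17959394 to 28039742 in the 3 iWAT KO libraries. Bckdha itself was at 111, 149.8 and 159.7 counts scaled to library size (CPM) in eWAT KO and 255, 115 and 158 in iWAT KO, and at 215, 53.7 and 349 in eWAT WT and 117, 228 and 198 in iWAT WT. The depots overlapped in KO (log2 difference 0.35, SE 0.30, edgeR quasi-likelihood adjusted p = 0.481), and a count over the whole gene in fat does not check a deletion driven in beta cells.

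Several libraries stood apart in transcripts of tissue that is not fat. Crisp1, a secreted protein of the epididymal epithelium, was at 1518, 1.1 and 1744 CPM in eWAT KO replicates 1, 2 and 3. Myh11, the smooth muscle myosin heavy chain, was at 1373, 49.1 and 1353 CPM in the same libraries. Replicates 1 and 3 were thus high in both and replicate 2 was not. In iWAT KO the B cell list summed to 683 CPM in replicate 1, 2149 in replicate 2 and 2006 in replicate 3, against 18.5 to 30.0 in eWAT KO. Among the WT libraries, eWAT replicate 2 held 80550 CPM of epididymal epithelium genes and 535 CPM of mature adipocyte genes, against 58229 and 95491 CPM of the latter in eWAT WT replicates 1 and 3. In iWAT WT, replicate 2 stood low in B cell genes, with a summed 33.3 CPM against 2244 and 997 in replicates 1 and 3. In bulk tissue, fewer cells of a type and less RNA per cell cannot be told apart.

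**Figure D1:**
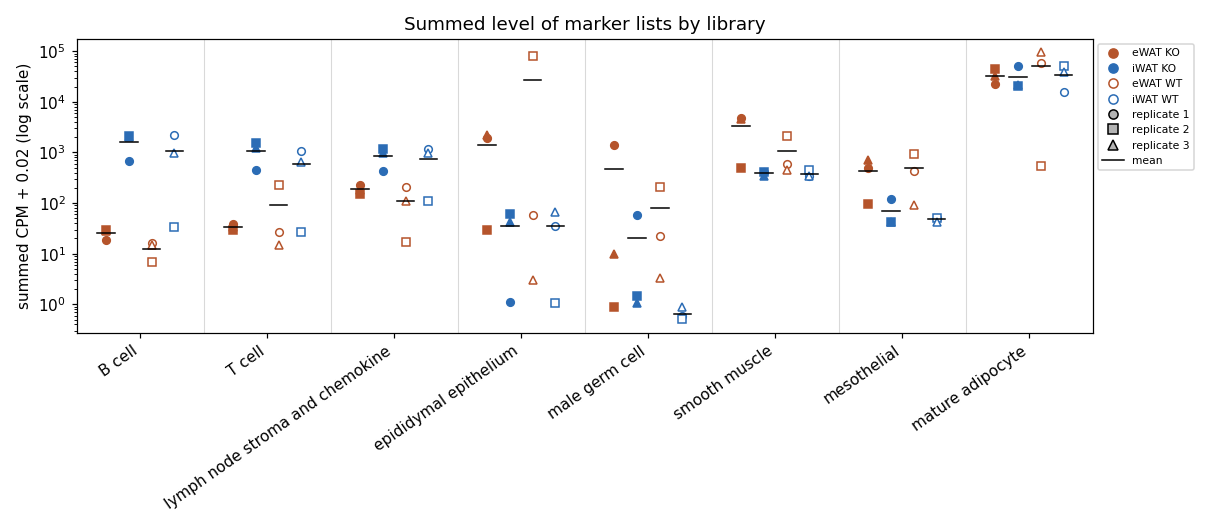
Summed level of 8 marker lists in each of the 12 fat libraries, on a log axis of summed CPM plus 0.02, with filled symbols for KO, open symbols for WT, 1 shape per replicate number and a line at the mean of each group. B cell, T cell and lymph node sums are high in all 3 iWAT KO libraries. The epididymal epithelium and smooth muscle sums are high in eWAT KO replicates 1 and 3 and low in replicate 2, and Crisp1 makes up most of the epididymal sum in replicates 1 and 3.

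Of 14386 genes tested, 1010 differed between the depots in KO (7.02%, edgeR quasi-likelihood, adjusted p under 0.05). Of these, 654 were higher in iWAT (4.55%) and 356 were lower (2.47%). A gene near 0 in 1 depot could pass the filter on low counts only through the other depot, which fixed its direction in advance. The median log2 difference over all genes tested was -0.01, 49.4% of genes lay above 0, and 31.8% had groups that did not overlap, 16.2% with every iWAT library higher and 15.5% with every iWAT library lower. Lymphoid genes made up a large named group among the rises: 73 were immunoglobulin gene segments and 6 were T cell receptor genes. The falls were led by epididymal depot identity and mesothelial genes. Single libraries moved the count: it fell to 0 without eWAT KO replicate 3 or without iWAT KO replicate 3, 1 without iWAT KO replicate 2, 173 without eWAT KO replicate 1, 2148 without iWAT KO replicate 1 and 2436 without eWAT KO replicate 2. Limma-voom called 4 genes (0.0278%), Ighm, Igkc and Mmp3 as higher in iWAT and Hspb7 as lower.

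**Figure D2:**
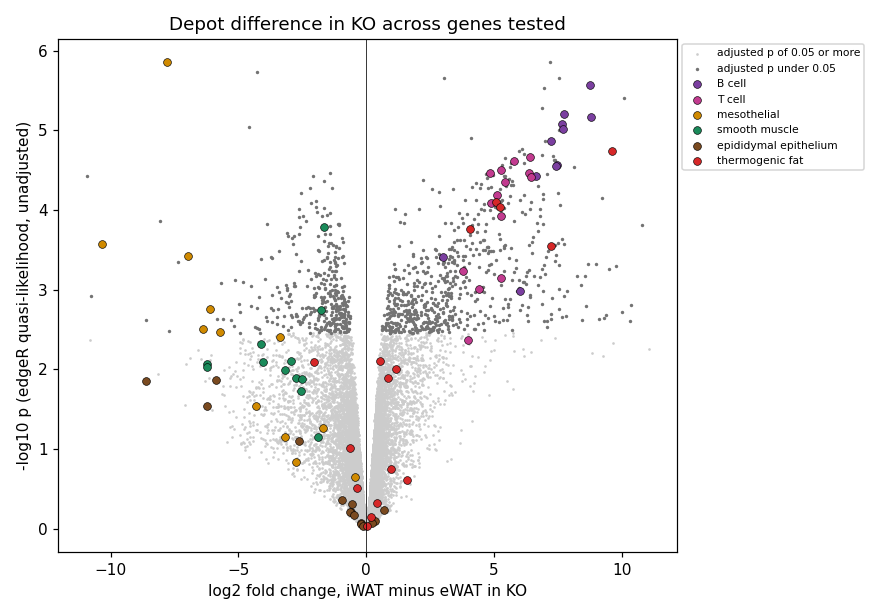
Each point is 1 of the 14386 genes tested, with the log2 fold change of iWAT minus eWAT in KO on the horizontal axis and the unadjusted edgeR p on the vertical axis as -log10, dark grey where the adjusted p is under 0.05 and coloured for 6 gene lists. B and T cell genes lie at the right, mesothelial genes at the left, and most epididymal epithelium genes near the bottom.

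Both depot labels matched the genes that define them. Tbx15, a T-box transcription factor of subcutaneous fat (ENSMUSG00000027868, chr3:99240381-99354259, GRCm38), was at 23, 14.7 and 16.3 CPM in iWAT KO and at 0.138, 0.165 and 0.0534 CPM in eWAT KO. Every iWAT library lay far above every eWAT library (log2 difference 7.18, SE 0.46, edgeR adjusted p = 0.00609). Tcf21, a basic helix-loop-helix factor of visceral mesenchyme (ENSMUSG00000045680, chr10:22817281-22820174), was at 19.3, 6.09 and 13.2 CPM in eWAT KO and at 0.11, 0 and 0 CPM in iWAT KO. The 3 eWAT libraries held 919 reads of Tcf21 and the 3 iWAT libraries 3, a depth-scaled ratio of 312 (95% interval 106 to 1516) in favour of eWAT that covers counting error only (edgeR adjusted p = 0.015).

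Of 14 tested members of the inguinal identity list, 4 rose in iWAT: Tbx15, Shox2, En1 and Hoxc10. Shox2, a homeobox gene of limb development, was at 25.6, 12.3 and 9.87 CPM in iWAT KO and 0.345, 0.548 and 0.213 in eWAT KO (log2 difference 5.43, edgeR adjusted p = 0.0113). Hoxc10, a posterior Hox gene, was at 33.2, 15.2 and 17.5 CPM in iWAT and 0.759, 0.11 and 2.61 in eWAT, again without overlap (log2 difference 4.27, SE 0.95, edgeR adjusted p = 0.0478). En1, the homeobox gene engrailed-1, had 120 reads in iWAT and 1 in eWAT, a ratio of 118 (95% interval 20.7 to 4691) (edgeR adjusted p = 0.026). Hoxd8, placed on the same list, went the other way, at 20.4, 15.4 and 14.2 CPM in iWAT and 81.6, 35.2 and 69.2 in eWAT (log2 difference -1.87, edgeR adjusted p = 0.031). The other 9 did not pass. The list's median was 0.56, but single libraries moved it, to -0.02 without eWAT KO replicate 2, 0.0083 without iWAT KO replicate 1, 0.25 without iWAT KO replicate 3 and 1.15 without eWAT KO replicate 1.

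In the epididymal identity list 5 of 12 fell in iWAT (Tcf21, Wt1, Hoxc4, Bnc1 and Nr2f1, the last named after its values were seen), 11 of 12 lay lower and the median was -1.53. Wt1, the zinc finger factor of mesothelium and visceral fat progenitors, was at 18.3, 9.27 and 16.1 CPM in eWAT KO and no higher than 0.0732 CPM in any iWAT KO library (log2 difference -7.80, SE 0.50, edgeR adjusted p = 0.00609). In each of the 5 genes eWAT KO replicate 2 also lay above every iWAT library. It was the lowest eWAT library for Bnc1, at 0.987 CPM against 2.93 and 9.13 in replicates 1 and 3, and the highest for Hoxc4. Without eWAT KO replicates 1 and 3, 10 of the 12 lay lower and the median was -1.36. Tcf21, Wt1 and Bnc1, near 0 in iWAT KO, could pass the count filter only through eWAT, so their direction was fixed in advance. What epididymal tissue adds to the genes of this list was not tested.

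**Figure D3:**
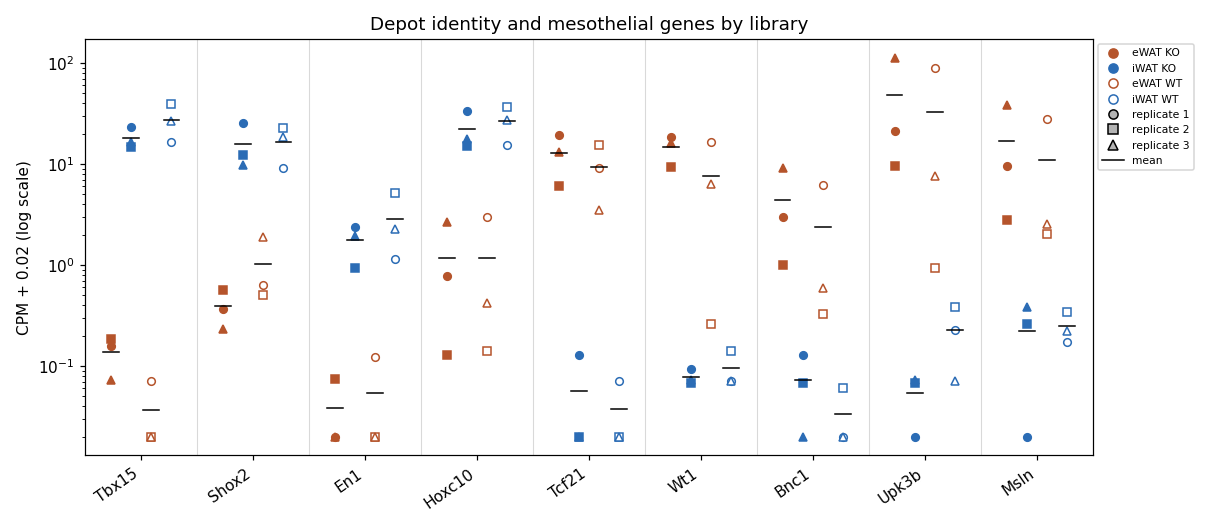
Level of 9 depot identity and mesothelial genes in each fat library, as CPM plus 0.02 on a log axis, with filled symbols for KO, open symbols for WT and a line at each group's mean. Tbx15, Shox2, En1 and Hoxc10 are higher in every iWAT KO library than in any eWAT KO library, and the other 5 genes are lower.

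The promoter windows of 3 genes that mark a depot are shown because each was near 0 in the other depot of KO, with that of Glycam1, a lymph node gene, beside them. They are RefSeq windows on GRCm38.p6, 250 bases before to 50 after the start site on the gene's strand, with each CG dinucleotide in capitals.
Shox2, chr3:66981722-66982021, minus strand: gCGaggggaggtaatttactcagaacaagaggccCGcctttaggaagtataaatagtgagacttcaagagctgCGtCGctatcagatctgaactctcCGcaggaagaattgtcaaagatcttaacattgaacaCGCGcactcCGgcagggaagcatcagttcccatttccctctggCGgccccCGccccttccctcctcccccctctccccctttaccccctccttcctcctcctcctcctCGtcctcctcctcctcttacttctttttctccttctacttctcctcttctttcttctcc
Tcf21, chr10:22820094-22820393, minus strand: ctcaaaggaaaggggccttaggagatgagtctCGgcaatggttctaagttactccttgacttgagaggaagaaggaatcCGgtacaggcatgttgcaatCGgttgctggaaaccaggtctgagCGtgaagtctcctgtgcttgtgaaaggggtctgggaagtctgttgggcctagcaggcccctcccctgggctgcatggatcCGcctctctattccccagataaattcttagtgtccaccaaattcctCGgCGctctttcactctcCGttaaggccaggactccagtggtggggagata
Ucp1, chr8:83290098-83290397, plus strand: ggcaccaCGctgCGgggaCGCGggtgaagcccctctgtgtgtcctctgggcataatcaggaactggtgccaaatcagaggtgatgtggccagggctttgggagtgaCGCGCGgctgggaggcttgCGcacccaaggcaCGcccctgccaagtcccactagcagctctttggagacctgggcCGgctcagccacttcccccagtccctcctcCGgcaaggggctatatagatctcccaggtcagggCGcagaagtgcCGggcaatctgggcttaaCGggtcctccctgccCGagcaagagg
Glycam1, chr15:103565032-103565331, minus strand: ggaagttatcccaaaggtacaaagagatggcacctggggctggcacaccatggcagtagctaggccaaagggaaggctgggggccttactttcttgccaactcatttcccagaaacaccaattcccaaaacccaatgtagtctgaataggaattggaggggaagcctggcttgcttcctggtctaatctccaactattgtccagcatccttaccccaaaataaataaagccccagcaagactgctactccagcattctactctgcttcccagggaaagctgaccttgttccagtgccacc
The windows held 11 CG dinucleotides for Shox2, 8 for Tcf21, 15 for Ucp1 and 0 for Glycam1, against a median of 7 over 32851 windows. At least as many as in Shox2, Tcf21 and Ucp1 were found in 41.4%, 48.6% and 34.6% of all windows. Tbx15 has no window in the table used.

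Mesothelial genes tested lay lower in iWAT: 12 of 12 members lay lower, 6 fell and the median was -5.01. Members near 0 in iWAT KO, such as Upk3b, Wt1 and Bnc1, could pass the count filter only through eWAT. Their direction was fixed in advance, so 12 of 12 is no evidence by itself. Upk3b, a uroplakin of mesothelial cells, was at 21.2, 9.49 and 113 CPM in eWAT KO and 0, 0.0483 and 0.0522 CPM in iWAT KO. With 2899 reads in eWAT and 2 in iWAT, the ratio was 1477 (95% interval 408 to 12199) (edgeR adjusted p = 0.0203). Msln, the surface protein mesothelin, was at 9.6, 2.74 and 38.6 CPM in eWAT and 0, 0.242 and 0.365 in iWAT (log2 difference -6.38, edgeR adjusted p = 0.0478). Replicate 2 was the lowest eWAT library for both genes and still lay above every iWAT library. Upk1b, Bnc1, Muc16 and Wt1 completed the 6, with log2 differences of -6.99, -6.10, -5.72 and -7.80; Muc16 was named after its values were seen. The list's summed level ran from 97.5 to 696 CPM in eWAT KO and from 41.5 to 121 CPM in iWAT KO. Without eWAT KO replicates 1 and 3, 8 of 12 members lay lower and 1, Wt1, fell, in a fit that called 0.106% of all genes.

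Hox genes, which record position along the body axis, were mostly lower in iWAT. Of 28 tested, 24 lay lower, and Hoxa9, Hoxa10, Hoxc9 and Hoxc10 lay higher, with a median of -1.13. Hoxc10 rose, and Hoxc4 and Hoxd8 fell. Hoxc4 was at 13.2, 19.3 and 16 CPM in eWAT KO and 3.88, 2.27 and 2.45 in iWAT KO (log2 difference -2.47, SE 0.31, edgeR adjusted p = 0.0139). By cluster, all 8 Hoxb genes and all 5 Hoxd genes tested lay lower, with medians of -1.60 and -1.87, while 2 of 9 Hoxa and 2 of 6 Hoxc genes lay higher. Without eWAT KO replicates 1 and 3, 18 of 28 lay lower.

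Lymphocyte genes were higher in iWAT almost without exception. All 11 B cell genes rose, with a median of 7.45, and 13 of 14 T cell genes rose, with a median of 5.28. Members near 0 in eWAT KO, such as Fcer2a, could pass the count filter only through iWAT, so their direction was fixed in advance. Cd79a, a signalling chain of the B cell receptor, was at 147, 397 and 392 CPM in iWAT KO and 1.14, 1.1 and 2.51 in eWAT KO (log2 difference 7.67, SE 0.63, edgeR adjusted p = 0.00944). Fcmr, the receptor for IgM, was at 74.4, 209 and 194 CPM in iWAT and 0.276, 0.329 and 0.534 in eWAT (log2 difference 8.77, edgeR adjusted p = 0.00609). Cd3e, a chain of the T cell receptor complex, was at 16.4, 51.5 and 44 CPM in iWAT and 0.69, 1.59 and 1.07 in eWAT (log2 difference 5.12, edgeR adjusted p = 0.0124). In all 3 genes iWAT replicate 1 was the lowest iWAT library and still lay far above eWAT. Cd79b and Fcer2a rose by 7.21 and 8.78 on the log2 scale, and Ccr7, Cd4 and Trbc2 by 6.39, 5.29 and 5.80. Lef1 was the T cell gene that did not pass (log2 difference 3.99, edgeR adjusted p = 0.0532).

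Genes of the lymph node stroma and chemokine list moved the same way, with 10 of 10 higher, a median of 4.42 and 4 that rose: Glycam1, Cxcl13, Ltb and Tnfsf11. Not all of these are made by stroma or vessels. The chemokines Ccl21a and Ccl19 lay higher by 2.22 and 3.73 on the log2 scale but did not pass (edgeR adjusted p = 0.14 and 0.0515). Glycam1, a mucin-like ligand made by the high endothelial venules of lymph nodes, was at 57.5, 123 and 132 CPM in iWAT KO and 0, 0.165 and 0.16 in eWAT KO (log2 difference 10.08, SE 0.74, edgeR adjusted p = 0.00707). Cxcl13, the chemokine that draws B cells into follicles, was at 41.4, 77.1 and 62.6 CPM in iWAT and 1.45, 0.658 and 3.26 in eWAT (log2 difference 5.12, edgeR adjusted p = 0.013). Neither gene's groups overlapped. Glycam1, near 0 in eWAT KO, could pass the count filter only through iWAT, so its direction was fixed in advance. The list summed to 436 to 1150 CPM in iWAT KO and 148 to 232 CPM in eWAT KO.

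Antibody genes rose too: of 104 immunoglobulin gene segments tested, 104 lay higher and 73 rose, with a median of 6.76 and summed levels of 3450 to 15096 CPM in iWAT KO against 168 to 236 CPM in eWAT KO. The count filter asks for enough reads in as many libraries as 1 depot holds. A segment near 0 in eWAT KO, such as Ighv1-7 with 1 read there, entered only through high iWAT libraries. For such segments the filter fixed the direction in advance, so 104 of 104 is no evidence by itself. How many segments this covers was not counted. Reads can be split among these near-identical segments, so single segments are uncertain. Of 9 plasma cell genes, 8 lay higher, and Jchain, Ighm, Igkc and Mzb1 rose. The remaining gene lay lower, with every iWAT library below every eWAT library, as in 15.5% of all genes tested. Ighg1 overlapped, at 5.56, 30.9 and 641 CPM in iWAT KO and 1.21, 5.65 and 6.46 in eWAT KO (edgeR adjusted p = 0.102). Igkc, the kappa light chain constant region, was at 648, 1733 and 2890.3 CPM in iWAT and 30.03, 38.2 and 33.2 in eWAT (log2 difference 5.74, edgeR adjusted p = 0.0113), with iWAT replicate 3 the highest. Tspan10, a tetraspanin, was at 5.05, 10.3 and 13.8 CPM in iWAT KO with no read in eWAT KO, at least 201-fold higher against 3 reads over the eWAT group.

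The share of the depot difference that lymphoid tissue accounts for was not tested. Leaving the 89 genes of the B cell, T cell, lymph node, plasma cell, epididymal, germ cell and smooth muscle lists out of the fit left 619 rises and 352 falls, but 71 immunoglobulin segments and 4 T cell receptor genes outside those lists were still among the rises. In iWAT WT replicate 2, the library low in lymphocyte genes, Cd79a was at 1.25 CPM and Glycam1 at 0.324 CPM. Set against eWAT WT replicates 1 and 3, which had no part in the calls, 270 of the 654 rises lay above both in that library and 121 below both (41.3% and 18.5%, against 32.8% and 34.7% of all genes tested). Of the 356 falls, 173 lay below both and 69 above both (48.6% and 19.4%). Ucp1, Cidea, Mmp3, Tbx15 and Shox2 were among the rises that lay above both, while Timd4, at 39.1, 98.8 and 61.5 CPM in iWAT KO and 3.32 CPM in that library, lay below both.

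The summed epididymal and smooth muscle transcripts were high in eWAT KO replicates 1 and 3, and most of the genes did not pass the test. Crisp1 was at 0.0366, 6.91 and 1.15 CPM in iWAT KO, and its log2 difference of -8.62 had an edgeR adjusted p of 0.0915. None of the 15 epididymal epithelium genes tested passed, 12 lay lower, 3 lay higher and the median was -0.55. The list's summed level was 1910, 29.8 and 2229 CPM in eWAT KO replicates 1, 2 and 3, against 1.10 to 61.3 CPM in iWAT KO. Crisp1 alone gave 1518 CPM of that sum in replicate 1 and 1744 CPM in replicate 3. Gpx5, an epididymal glutathione peroxidase, was at 12.8, 14.4 and 19.9 CPM in eWAT KO and 0.183, 19.3 and 22.2 in iWAT KO, so it did not follow Crisp1. Gpx5 reached 44693 CPM in eWAT WT replicate 2, and it lay between 0 and 18.9 CPM of unscaled totals in the 6 liver libraries. Prm2, a protamine of sperm, was at 298, 0.219 and 1.28 CPM in eWAT KO and 12, 0.242 and 0 CPM in iWAT KO, high in eWAT replicate 1 alone (edgeR adjusted p = 0.294).

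All 12 smooth muscle genes lay lower in iWAT, with a median of -2.85, but only Synpo2 and Smtn fell. Myh11 was at 53.5, 60.9 and 50.4 CPM in iWAT KO, so eWAT KO replicate 2 lay below the 3 iWAT libraries (edgeR adjusted p = 0.0694). Actg2, the enteric smooth muscle actin, was at 276, 0.713 and 280.1 CPM in eWAT KO and 2.56, 2.66 and 1.93 in iWAT KO (edgeR adjusted p = 0.0742). Synpo2, an actin-binding protein, was high in all 3 eWAT libraries at 258, 179 and 249 CPM, against 61, 81.6 and 69.6 in iWAT (log2 difference -1.66, SE 0.22, edgeR adjusted p = 0.0156). Without eWAT KO replicates 1 and 3, 7 of 12 smooth muscle genes lay higher in iWAT, and 9 of 17 epididymal genes tested lay higher. The count filter was looser in that fit, so more epididymal genes were tested than the 15 of the main fit.

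Among the 10 largest falls, Ptgs2, Lrp2 and Lama1 were far higher in the same pair of libraries. Ptgs2, the inducible cyclooxygenase, was at 1107, 7.35 and 1417 CPM in eWAT KO and 1.54, 2.75 and 1.98 in iWAT KO, and it passed with an edgeR adjusted p of 0.0435. Lrp2, the endocytic receptor megalin of absorptive epithelia, was at 209, 2.58 and 86.9 CPM in eWAT and 0.0366, 0.483 and 0.94 in iWAT (edgeR adjusted p = 0.0488). Lama1, a laminin chain of epithelial basement membranes, was at 12.2, 1.97 and 13.1 CPM in eWAT and 0.183, 0.338 and 0 in iWAT (edgeR adjusted p = 0.0427). In each, eWAT replicate 2 lay above iWAT but far below replicates 1 and 3. Slc22a14, an organic cation transporter family gene, was highest in eWAT replicate 1, at 17.5, 4.55 and 2.72 CPM, against 0.439, 0.0967 and 0.209 in iWAT. In eWAT WT replicate 2, rich in epididymal transcripts, Ptgs2 was at 4.55 CPM, Lrp2 at 82.3 CPM and Lama1 at 34.8 CPM. What epididymal tissue adds to these genes in KO was not tested.

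Genes of thermogenic fat were higher in iWAT: of 16 tested, 5 rose, none fell, 13 lay higher and the median was 0.90. Ucp1 (ENSMUSG00000031710) was at 45.8, 21.8 and 13.6 CPM in iWAT KO and 0.069, 0 and 0 CPM in eWAT KO. With 1963 reads against 2, the ratio was 963 (95% interval 266 to 7961) (edgeR adjusted p = 0.0113). Cidea, a lipid droplet protein of brown and beige adipocytes, was at 135, 57.3 and 50.1 CPM in iWAT and 3.38, 0.987 and 2.67 in eWAT, without overlap (log2 difference 5.09, SE 0.60, edgeR adjusted p = 0.013). Cox8b, a cytochrome oxidase subunit of brown fat and muscle, was at 21.5, 12.1 and 9.97 CPM in iWAT and 0.483, 0.768 and 1.44 in eWAT (log2 difference 4.05, edgeR adjusted p = 0.0162). Elovl3, a fatty acid elongase of brown fat, and Otop1, a proton channel named after its values were seen, rose by 5.24 and 7.23 on the log2 scale. Across these 5 genes iWAT KO replicate 1 was the highest library, and its summed mature adipocyte level, 50313 CPM, was above the 20200 and 21021 CPM of replicates 2 and 3. Without that library 5 of 17 thermogenic genes rose, 11 lay higher and the median was 0.60.

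Lipid synthesis genes also leaned towards iWAT. Of 19 in de novo lipogenesis, 15 lay higher, 2 rose and none fell, with a median of 0.84. Elovl6, which elongates palmitate, was at 126, 70.8 and 137 CPM in iWAT KO and 26.5, 12.4 and 30.9 in eWAT KO (log2 difference 2.28, SE 0.40, edgeR adjusted p = 0.0306). Slc25a1, the mitochondrial citrate carrier, was at 950.2, 311 and 732 CPM in iWAT and 134, 143 and 216 in eWAT (log2 difference 2.03, edgeR adjusted p = 0.0425). Acly, which turns citrate into acetyl-CoA, did not overlap between depots either but did not pass (log2 difference 1.75, edgeR adjusted p = 0.0528). In the electron transport chain, 43 of 44 oxidative phosphorylation genes lay higher in iWAT with a median of 0.49, and none passed the test. Without iWAT KO replicate 1, 38 of 44 lay higher and the median was 0.17. Insig1, a sterol-regulated protein that restrains cholesterol synthesis, rose, at 481, 212 and 279.6 CPM in iWAT and 79.2, 122 and 115 in eWAT (log2 difference 1.64, edgeR adjusted p = 0.0401).

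General adipocyte genes mostly did not pass the test. Of 18 mature adipocyte genes, Cidea rose, none fell, and the median was -0.03, which ran from -0.54 without iWAT KO replicate 1 to 0.21 without iWAT KO replicate 2. Adipoq, the adipocyte hormone adiponectin, was at 1035, 2359.8 and 1436 CPM in eWAT KO and 3197, 1148 and 1160.2 in iWAT KO, with overlap (edgeR adjusted p = 0.82). No gene passed among 22 of triglyceride storage and lipolysis, 20 of fatty acid oxidation and 27 of branched-chain amino acid catabolism, whose medians were -0.01, 0.54 and 0.17. In those lists 10, 18 and 18 genes lay higher in iWAT. Without iWAT KO replicate 1 these became 5, 15 and 7, with medians of -0.46, 0.12 and -0.15, and 1 fatty acid oxidation gene passed.

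**Figure D4:**
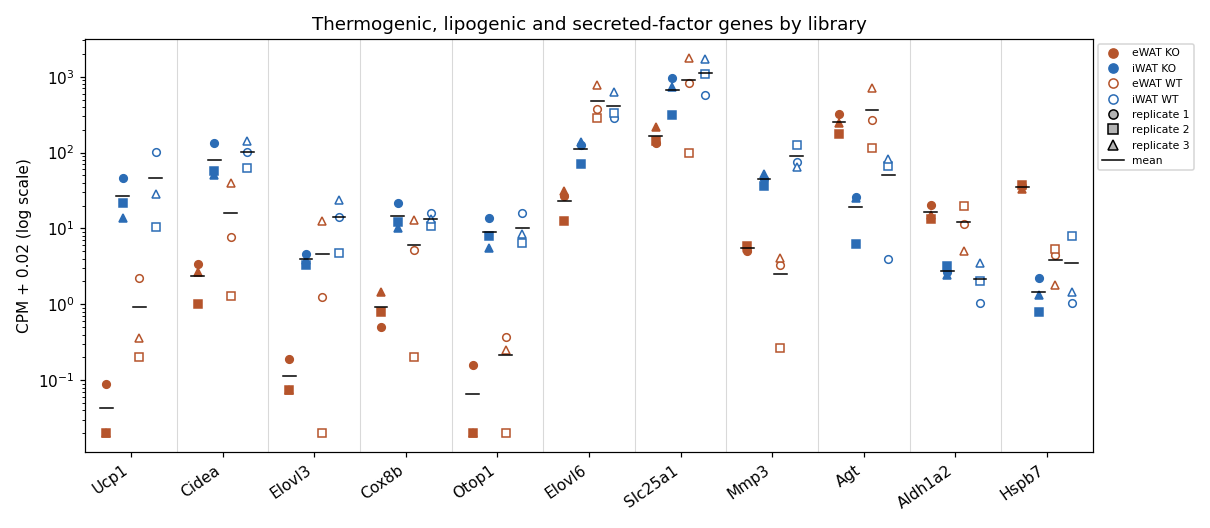
Level of 11 thermogenic, lipogenic, matrix and secreted-factor genes in each fat library, as CPM plus 0.02 on a log axis, with filled symbols for KO, open symbols for WT and a line at each group's mean. From Ucp1 to Mmp3 every iWAT KO library lies above every eWAT KO library, and from Agt to Hspb7 every iWAT KO library lies below.

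Matrix genes leaned towards eWAT. Of 23 collagen genes, 22 lay lower in iWAT and 6 fell, with a median of -1.0. Col8a1, a short-chain collagen, was at 14.7, 17.9 and 15.3 CPM in eWAT KO and 6.59, 3.58 and 3.5 in iWAT KO (log2 difference -1.79, SE 0.31, edgeR adjusted p = 0.03). Col14a1, Col6a6 and Col4a5 fell by 1.38, 2.78 and 3.02 on the log2 scale, the last with eWAT KO replicate 2 at 15.5 CPM against 67.1 and 73.1 in replicates 1 and 3. Among 31 other matrix genes 25 lay lower and 4 fell: Fbln2, Eln, Lum and Mfap4, the last named after its values were seen. Fbln2, the matrix glycoprotein fibulin-2, was at 173, 308 and 220.2 CPM in eWAT and 90.9, 53.7 and 82.3 in iWAT (log2 difference -1.60, edgeR adjusted p = 0.0318). Mmp3, the matrix protease stromelysin-1, rose against the rest of its list, at 44.2, 36.6 and 52.9 CPM in iWAT and 4.97, 5.92 and 5.55 in eWAT (log2 difference 3.05, SE 0.21, edgeR adjusted p = 0.00609).

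Regulators of Wnt and BMP signalling were among the falls. Of 30 genes on that list 24 lay lower, 4 fell and none rose, with a median of -0.91. Chrdl1, a BMP antagonist, was at 175, 246 and 210.4 CPM in eWAT and 94.4, 60.3 and 63.1 in iWAT (log2 difference -1.51, edgeR adjusted p = 0.0217). Sfrp1, a secreted Wnt antagonist, was at 103, 21.6 and 73.3 CPM in eWAT and 6.66, 7.93 and 7.47 in iWAT (log2 difference -3.14, edgeR adjusted p = 0.0308). Neither gene overlapped between depots. Axin2, an intracellular brake on Wnt signalling that is itself a Wnt target, was close within each depot, at 62.8, 64.8 and 66.5 CPM in eWAT and 34.3, 27.3 and 27 in iWAT (log2 difference -1.11, SE 0.15, edgeR adjusted p = 0.0151).

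In the retinoid list 2 of 17 fell, both of them enzymes that make retinoic acid, where 2.47% of all genes tested fell. The list as a whole leaned little, with 12 genes lower, 5 higher and a median of -0.23. Aldh1a2 was at 20.3, 13.4 and 15.2 CPM in eWAT KO and 2.67, 3.19 and 2.4 in iWAT KO (log2 difference -2.54, SE 0.29, edgeR adjusted p = 0.012), and Aldh1a3 fell by 1.57 on the log2 scale. Of 20 adipokines and secreted factors, 15 lay lower with a median of -0.61, and 3 fell, Agt and Sfrp1 among them. Agt, the precursor of angiotensin, was at 325, 178 and 245 CPM in eWAT and 25.6, 6.19 and 25.2 in iWAT (log2 difference -3.70, edgeR adjusted p = 0.0225). Igf2, a growth factor, was the gene that fell among 20 of the insulin signalling list, whose median was -0.25. It was at 36.3, 26.2 and 28.1 CPM in eWAT and 12.3, 7.35 and 5.33 in iWAT (edgeR adjusted p = 0.0315).

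Stress and inflammatory genes moved in both directions. Hspb7, a small heat shock protein best known from heart and muscle, was at 36.5, 37.1 and 33 CPM in eWAT KO and 2.2, 0.773 and 1.31 in iWAT KO (log2 difference -4.61, SE 0.39, edgeR adjusted p = 0.00944). Ier3 also fell and Egr3, an immediate early gene of activated lymphocytes, rose, with log2 differences of -1.95 and 3.35, so 3 of 23 genes on that list changed. Among 20 inflammatory mediators Ccl5, a T cell chemokine, rose by 4.15, while Lcn2 and Ptgs2 fell. Lcn2, an iron-siderophore carrier, was at 183, 53 and 62.9 CPM in eWAT KO and 14.3, 12.9 and 14 in iWAT KO, and it reached 3421 CPM in the epididymis-rich eWAT WT replicate 2.

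Cell division genes lay higher in iWAT in 20 of 20 cases, with a median of 2.28, and Ccna2, Rrm2, Mki67 and Aurkb rose. Mki67, the proliferation marker, was at 10.02, 34.5 and 75.1 CPM in iWAT KO and 3.62, 5.26 and 2.67 in eWAT KO (log2 difference 3.41, edgeR adjusted p = 0.0455). In iWAT WT replicate 2, low in lymphocyte genes, Mki67 was at 2.06 CPM. The list's summed level was 196, 479 and 701 CPM in iWAT KO replicates 1 to 3, against 683, 2149 and 2006 CPM for the B cell list. Both lists were lowest in replicate 1, but cell division was highest in replicate 3 and the B cell list in replicate 2. What lymphoid cells add to the cell division genes was not tested.

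At most 2 markers of each remaining cell type passed the test, where 7.02% of all genes tested passed. Of 7 nerve genes 2 rose, among them Mbp, a protein of myelin, at 132, 141 and 146 CPM in iWAT KO and 50.2, 83.6 and 71.9 in eWAT KO (log2 difference 1.06, edgeR adjusted p = 0.0407). Timd4, a receptor for dying cells on resident macrophages, was the macrophage gene of 15 that rose. Vwf, the endothelial clotting factor, was the endothelial gene of 13 that fell, at 233, 183 and 261 CPM in eWAT and 83.3, 95.9 and 99.7 in iWAT (edgeR adjusted p = 0.0231). Among 15 progenitor genes Icam1 rose by 1.66 and F3, coagulation tissue factor, fell by 1.45 on the log2 scale. Tnni2, a fast skeletal muscle troponin, rose among 8 muscle genes at a low level, 2.38, 0.58 and 0.731 CPM in iWAT against 0.069, 0.0548 and 0.107 in eWAT. None of 7 erythroid, 7 neutrophil, 8 hepatocyte or 5 skin and mammary epithelium genes passed. All 7 erythroid genes lay lower, with a median of -1.15, and 5 of them had every iWAT library below every eWAT library, as had 15.5% of all genes tested. Without iWAT KO replicate 1, 4 of the 7 fell and the median was -1.79.

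**Figure D5:**
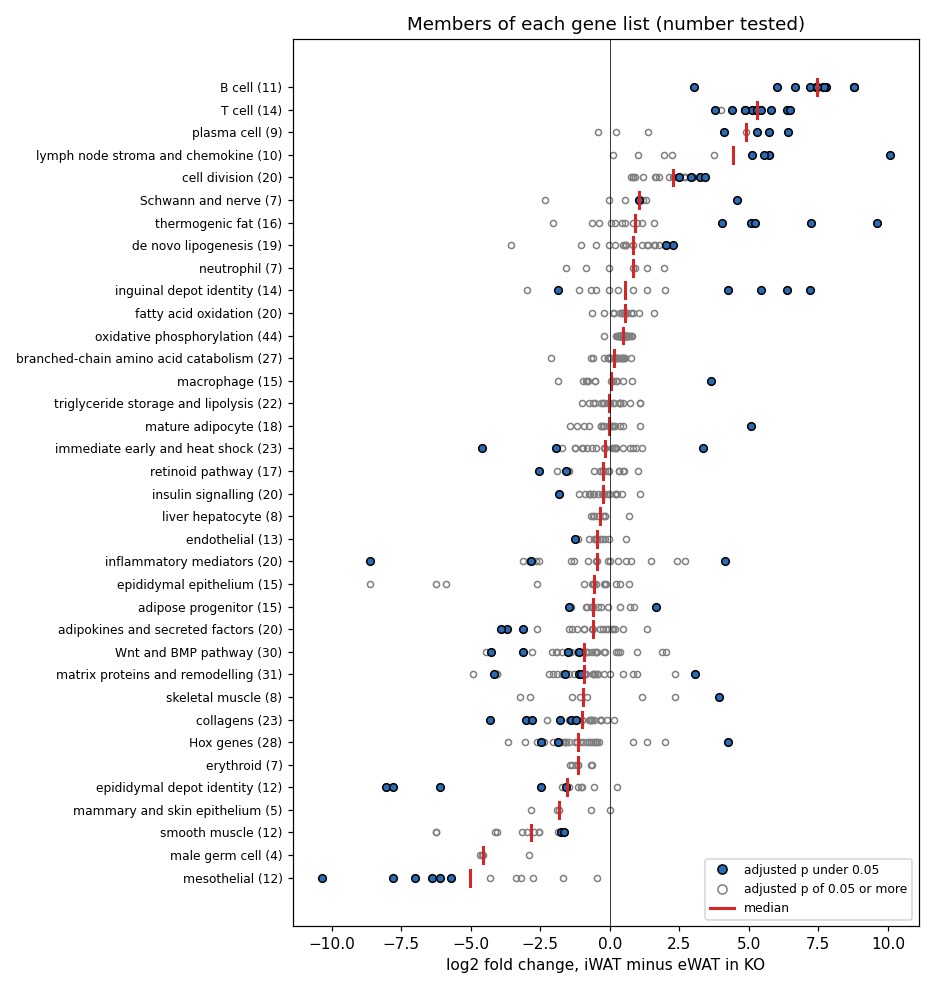
Every tested member of the 36 gene lists, with the log2 fold change of iWAT minus eWAT in KO on the horizontal axis, filled where the edgeR adjusted p is under 0.05, a red bar at each list's median and the number tested beside its name. B cell, T cell and plasma cell lists have the highest medians, and the mesothelial and male germ cell lists the lowest.

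Most list directions were also seen with eWAT KO replicate 2 as the lone eWAT library, though few genes passed there (0.106% of all). In that fit 11 of 11 B cell, 14 of 14 T cell, 20 of 20 cell division and 44 of 44 oxidative phosphorylation genes lay higher in iWAT. Thermogenic genes lay higher in 12 of 17 cases and lipogenic genes in 17 of 19. Collagens lay lower in 19 of 23 cases, other matrix genes in 24 of 31 and Wnt and BMP genes in 19 of 30. Other lists turned. Male germ cell genes lay higher in 12 of 12 cases, against 0 of 4 in the main fit. Skeletal muscle genes lay higher in 11 of 12 cases against 3 of 8, and skin and mammary epithelium genes in 5 of 6 against 1 of 5. Neutrophil genes lay higher in 1 of 8 cases against 4 of 7. The count filter of this fit asked for enough reads in only 1 library, so the lists that turned held more genes than in the main fit. A gene near 0 in eWAT KO replicate 2 entered only through iWAT, which fixed its direction. The male germ cell list summed to 0.878 CPM in that library, so 12 of 12 is no evidence by itself. The lone-library fit reuses libraries of the main fit, so it is no independent check. Wt1 was among the 16 genes that passed.

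The same contrast was fitted in the WT libraries, which share none with the KO contrast. There edgeR called 0 of 14006 genes, 2043 had an unadjusted p under 0.05 (14.6%), DESeq2 called 1166 (8.33%) and limma-voom 0. Of the 654 KO rises, 520 were tested in WT, and 507 of these also lay higher in iWAT (97.5%, against 45.7% of all genes). Of the 356 falls, 339 were tested in WT, and 296 also lay lower (87.3%, against 54.3%). Genes near 0 in 1 WT depot, such as Tbx15 with 1 read in eWAT WT, entered that fit only through the other. Their direction was fixed in advance, so these shares are no evidence by themselves. How many genes this covers was not counted. Tbx15 was at 16.4, 39 and 26.8 CPM in iWAT WT and 0.0507, 0 and 0 in eWAT WT, and Tcf21 at 0.0515, 0 and 0 and 9.02, 15.3 and 3.48. Both genes separated the depots in WT as they did in KO. Ucp1 was at 101, 10.3 and 28.8 CPM in iWAT WT and 2.18, 0.182 and 0.342 in eWAT WT, again without overlap.

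Hspb7 and Synpo2, lower in iWAT in KO, had other values in WT. Hspb7 was at 4.41, 5.28 and 1.77 CPM in eWAT WT and 1.03, 7.85 and 1.41 in iWAT WT, so the WT depots overlapped and eWAT WT lay below eWAT KO in every library (adjusted p of the difference = 0.969). Synpo2 was at 37.9, 19.2 and 22.9 CPM in eWAT WT and 62.2, 30.7 and 49.8 in iWAT WT, again far below eWAT KO (adjusted p of the difference = 0.969). The test of the difference did not call either gene.

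The difference between the depot effects, KO minus WT, was tested over the 12 fat libraries. EdgeR called 0 of 15455 genes, with 739 at an unadjusted p under 0.05 (4.78%), while DESeq2 called 31 (0.201%) and limma-voom 0. Elovl6 was at 287, 336 and 628 CPM in iWAT WT and 376, 287 and 778 in eWAT WT, overlapping there (adjusted p of the difference = 0.969). Collagens lay higher in iWAT for 14 of 23 genes in WT, against 1 of 23 in KO, with medians of 0.49 and -1.0. Oxidative phosphorylation genes lay higher for 12 of 44 in WT against 43 of 44 in KO. Neither list's difference was carried by a gene that passed the test of the difference, and eWAT WT replicate 2 enters every WT value. In data simulated at these depths, 19.7% of genes given an 8-fold difference between genotypes were recovered, against 80.9% for an 8-fold depot difference in KO.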

How the data were processed

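RNA of 6 KO fat libraries was compared, with 6 WT fat libraries beside it and liver used for background levels alone. The authors deposited an expected count per gene and an FPKM value, a count scaled by gene length and library size, for each library. The mm10 build and RSEM, HISAT2, Bowtie2 2.2.8, fastp 0.18.0, edgeR, DESeq2 and StringTie 1.3.1 are named per the submitters' processing notes; the step each did, and any use of strand, are not given in the sources used here. Of the deposited expected counts in fat, 9.47% were not whole, and all were rounded. Ensembl identifiers were matched to GENCODE M21 symbols and GRCm38 coordinates (22255 of 22298).

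Genes passing filterByExpr (minimum count 10, minimum total 15) were scaled with TMM and tested with edgeR 4.0.16 (glmQLFit robust, glmQLFTest; R 4.3.3), with Benjamini-Hochberg adjustment over all genes tested and a threshold of 0.05. Printed levels are CPM scaled over the 12 fat libraries, 1 value per library in replicate order. Standard errors are the log2 difference over the square root of F. Intervals on read ratios are 95% exact intervals and, like the floor of 3 reads, cover counting error only. DESeq2 1.42.0, limma 3.58.1 (voom on counts, trend on log2 FPKM), other filters, scalings and left-out libraries were alternatives. The fit was tested on simulated counts: in KO 52.9% of 4-fold and 6.45% of 2-fold changes were recovered, with 7 false calls of 103.

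The comparison, the 36 gene lists (20 of cell types, 16 of pathways) and the tests were chosen with earlier results of these data known. Named genes were Bckdha, Tbx15, Tcf21, defining markers, the 10 largest rises and falls with groups apart and a mean log2 CPM of at least 1, up to 4 members of each list by p, and up to 5 genes per direction by adjusted p for the difference between genotypes, of which the first in that order are given. Lists are described by counts and medians, with no set test. Replicate numbers were not used to pair the depots in the main fit, since whether the same number means the same animal is not stated. Some genes are not reported here.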

Additional observations from a re-analysis of the deposited data

Results flagged for a closer look

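The 3 genes flagged here had KO iWAT libraries all on one side of KO eWAT. Their WT iWAT libraries all lay on the opposite side of WT eWAT. How many of all genes tested share this pattern was not counted. In KO alone, 31.8% of genes tested had groups that did not overlap. For Dpysl3, a cytoskeletal protein of neurons and mesenchyme, the depot difference in KO minus that in WT was -2.176 on the log2 scale; it was at 71.3, 57.8 and 50 CPM in eWAT KO, 20.01, 22.1 and 23.2 in iWAT KO, 24.9, 21.4 and 12.2 in eWAT WT and 36.2, 33.5 and 26.9 in iWAT WT. For Ptgr1, a prostaglandin reductase, it was -3.462, with 38.6, 9.16 and 31.6 CPM in eWAT KO, 3.91, 3.24 and 5.85 in iWAT KO, 4.87, 3.82 and 3.08 in eWAT WT and 9.07, 5.99 and 6.21 in iWAT WT. For Mvd, an enzyme of cholesterol synthesis, it was 1.865, with 7.97, 13.3 and 11.2 CPM in eWAT KO, 26.7, 14.5 and 24.5 in iWAT KO, 32.3, 21.8 and 38.7 in eWAT WT and 15.8, 14.9 and 20.9 in iWAT WT. The edgeR test of the difference gave an adjusted p of 0.969 for each of the 3, so none passed.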

How the results depend on the processing

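The KO count of 1010 genes was 1009 with median-of-ratios scaling, 971 without the lymphoid, epididymal, germ cell and smooth muscle lists and 812 on log2(FPKM + 0.1). It was 479 without a filter, 3104 with DESeq2, 4 with limma-voom, 535 on log2(FPKM + 1), 129 on log2(FPKM + 1) without a filter, 3 (Tbx15 and Kbtbd11 among them) in a fit of the 12 fat libraries and 16 without eWAT KO replicates 1 and 3, where the lone eWAT library was assumed to vary like the iWAT libraries. Leaving out 1 library gave 0 to 2436 in KO and, in WT, 0 to 92, the highest without iWAT WT replicate 2. The share of calls higher in iWAT was 64.8%, against 37.2% without eWAT KO replicate 2 and 51.7% with DESeq2. In WT the count of 0 became 1166 with DESeq2, 2 on log2(FPKM + 1), 2 on log2(FPKM + 0.1) and 1 in the 12-library fit. For the difference between genotypes, 0 became 31 with DESeq2, 1 without the 3 eWAT libraries with epididymal transcripts, and 0 to 3 with 1 library left out. With the replicate number as a block, KO gave 456 calls, and WT and the difference 0. Same-numbered KO libraries correlated at 0.034, 0.003 and -0.020 in their deviations from the depot mean. With so few libraries this cannot show whether libraries of the same number share an animal.

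Without eWAT KO replicates 1 and 3 the log2 difference turned to 1.34 for Crisp1, 4.18 for Prm2, 0.19 for Myh11, 0.064 for Acta2, 1.76 for Actg2, 1.14 for Cnn1 and -0.35 for Adipoq. With each KO library left out in turn, Gpx5 ran from -0.59 to 0.47, Adam7 from -0.31 to 0.95, Prm2 from -9.52 to 2.44 and Adipoq from -0.42 to 0.60. Adam7, 0.35 as reported by edgeR, was -2.07 with limma-voom, -0.46 on log2(FPKM + 0.1) and -0.71 with the block. Over 96 genes followed in KO under 17 alternatives, 866 values kept their direction and side of the threshold, 698 kept their direction but did not pass, 15 came to pass and 16 reversed. The cause of these changes was not tested. Genes near 0 in a depot rest on few reads.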

Other observations

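Kbtbd11, a BTB and kelch domain protein, was higher in every iWAT library than in any eWAT library of the same genotype. It was at 126, 217 and 194 CPM in iWAT KO and 38.7, 48 and 43.2 in eWAT KO (log2 difference 2.08, SE 0.26, edgeR adjusted p = 0.013). In WT it was at 152, 104 and 154 CPM in iWAT and 71.8, 79.7 and 74.8 in eWAT. Its depots thus did not overlap in either genotype, and iWAT WT replicate 2, low in lymphocyte genes, was the lowest iWAT library.

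Insig1 and Cyp51 had low unadjusted p in the test of the difference between genotypes, and neither passed it. Insig1 was at 113, 109.8 and 182 CPM in iWAT WT and 485, 141 and 349 in eWAT WT, overlapping there, while it rose in iWAT KO. Cyp51, which demethylates lanosterol, was at 55.5, 58 and 64.3 CPM in eWAT KO, 90.6, 48 and 69.3 in iWAT KO, 182, 195 and 219.9 in eWAT WT and 53.5, 57.3 and 96.5 in iWAT WT, so eWAT WT stood above the other 3 groups. The edgeR adjusted p of the difference was 0.969 for Insig1 and 0.969 for Cyp51. Both were named for their low p in that test.

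The epididymal genes Crisp1 and Adam7 were read at low levels in liver. Crisp1 lay between 0.462 and 1.29 CPM of unscaled totals in the 6 liver libraries, and Adam7 between 0 and 4.8 CPM.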
